A study of Homo sapiens with 6 samples.

Results

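The noncoding host genes of small nucleolar RNAs (snoRNAs) were described in HEK293 cells, an established line from human embryonic kidney, after minocycline or its vehicle. The members were 10 named genes, GAS5, SNHG1, SNHG5, SNHG6, SNHG8, SNHG9, SNHG12, SNHG15, SNHG16 and ZFAS1, and each symbol matched 1 of the 57820 gene identifiers of the count table. All 10 passed the filter on low counts, among 17225 genes tested. Both groups were cells kept without heat shock, and the time given with the dose was 12 h in each. The control group of 3 libraries, also called vehicle, received DMSO, and the other 3 libraries received minocycline, a tetracycline antibiotic, at 100 µM. Replicates 1, 2 and 3 of each group also carry batch numbers 1, 2 and 3 in the labels, so that each batch holds 1 library of each group.

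A snoRNA host gene carries snoRNAs in its introns. After splicing, the introns are trimmed to snoRNAs, which guide chemical modification and processing of ribosomal and other RNAs, while the joined exons leave the nucleus as a transcript with no conserved protein. Many of these transcripts begin with a 5' terminal oligopyrimidine (5'TOP) tract, a C followed by a run of C or U that also begins the mRNAs of ribosomal proteins, and ribosomes that enter their short reading frames stop early. Such transcripts are known targets of nonsense-mediated decay, the pathway that destroys RNAs whose translation ends early, and GAS5 is known to accumulate when translation is blocked. In bulk RNA the level of a transcript reflects both its synthesis and its decay, which cannot be told apart here.

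The start of the gene is shown for the members with an entry in the RefSeq promoter table, since a 5'TOP tract is a known feature of many snoRNA hosts. Of the 10 genes 7 matched. Each line runs 5' to 3' from 20 bases before the annotated start to 30 bases from the start on, in build GRCh38.p14, and capitals mark the tract nearest to the start, defined as a C followed by at least 4 bases that are each C or T and beginning within 20 bases on either side.
GAS5 (chr1:173869016-173869065, minus strand): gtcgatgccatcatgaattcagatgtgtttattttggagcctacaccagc
SNHG1 (chr11:62855856-62855905, minus strand): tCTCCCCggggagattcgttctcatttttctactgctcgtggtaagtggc
SNHG5 (chr6:85678704-85678753, minus strand): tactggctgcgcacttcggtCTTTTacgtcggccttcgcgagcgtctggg
SNHG8 (chr4:118278742-118278791, plus strand): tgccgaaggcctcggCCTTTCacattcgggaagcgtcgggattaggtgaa
SNHG12 (chr1:28581844-28581893, minus strand): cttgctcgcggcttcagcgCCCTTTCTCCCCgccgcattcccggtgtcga
SNHG16 (chr17:76557744-76557793, plus strand): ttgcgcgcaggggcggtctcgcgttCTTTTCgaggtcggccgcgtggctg
ZFAS1 (chr20:49278622-49278671, plus strand): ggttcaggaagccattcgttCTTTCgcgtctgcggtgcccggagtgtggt

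In SNHG5 and ZFAS1 the tract begins at the first base of the annotated transcript. The tract of SNHG12 is the longest of the 7 at 12 bases and begins 1 base before the annotated start, and that of SNHG8 begins 5 bases before it. The wide window is a weak description, because 49.3% of 35116 promoters hold such a tract on the sense strand, against 6 of the 7 members, and 49.3% hold it on the opposite strand, against 4 of the 7. Within 5 bases on either side of the start, 16.6% of all promoters hold it on the sense strand, against 4 of the 7 members (SNHG5, SNHG8, SNHG12 and ZFAS1) and 17 of 36 protein-coding snoRNA host genes with an entry. Annotated starts can differ from the starts used in these cells. GAS5, the member with no tract in the window shown, has 91 annotated transcripts. Its line covers 1 annotated start, so it does not tell whether GAS5 transcripts in these cells begin with a tract.

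All 10 genes are annotated as long noncoding RNAs, and their spans are given in GRCh37 (hg19), the build named in the processing notes. Those read from the minus strand are GAS5 at chr1:173827697-173838020 (ENSG00000234741.3), SNHG1 at chr11:62619450-62623425 (ENSG00000255717.2) and SNHG5 at chr6:86360209-86388650 (ENSG00000203875.6), followed by SNHG6 at chr8:67832796-67838633 (ENSG00000245910.4), SNHG12 at chr1:28905050-28909644 (ENSG00000197989.9) and SNHG15 at chr7:45022618-45026560 (ENSG00000232956.4). Those read from the plus strand are SNHG8 at chr4:119199858-119206471 (ENSG00000269893.2), SNHG9 at chr16:2014896-2015510 (ENSG00000255198.3), SNHG16 at chr17:74553809-74667067 (ENSG00000163597.10) and ZFAS1 at chr20:47894715-47916137 (ENSG00000177410.8). The counts are sums over a gene and do not separate exons from retained introns.

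Of the 10 host genes, none differed between minocycline and vehicle past the threshold. In the fit over all genes with edgeR's quasi-likelihood test, 0.0522% of the genes tested had a Benjamini-Hochberg adjusted p under 0.05. Among the host genes the adjusted p ran from 0.820 to 0.995. DESeq2, which called 0.290% of all genes, and limma-voom, which called 0.0639%, also called 0 of the 10, and 1 of the 10 (SNHG9, lower) had an unadjusted p under 0.05, as did 4.70% of all genes tested in either direction and 1.97% as lower. The fitted level was lower with minocycline for 8 of the 10 and for 47.9% of all genes tested, and the median log2 fold change was -0.19 over the host genes and 0.01 over all genes. With library size as the single scaling the median was -0.11 and 7 of the 10 were lower, and with 1 surrogate variable in the model, an alternative added after the data were seen, the median was 0.01 and 5 were lower. In the same libraries the stress-response genes ASNS and CHAC1 rose by log2 fold changes of 1.59 ± 0.16 (SE, adjusted p = 0.00762) and 2.24 ± 0.24 (adjusted p = 0.0127).

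**Figure D1:**
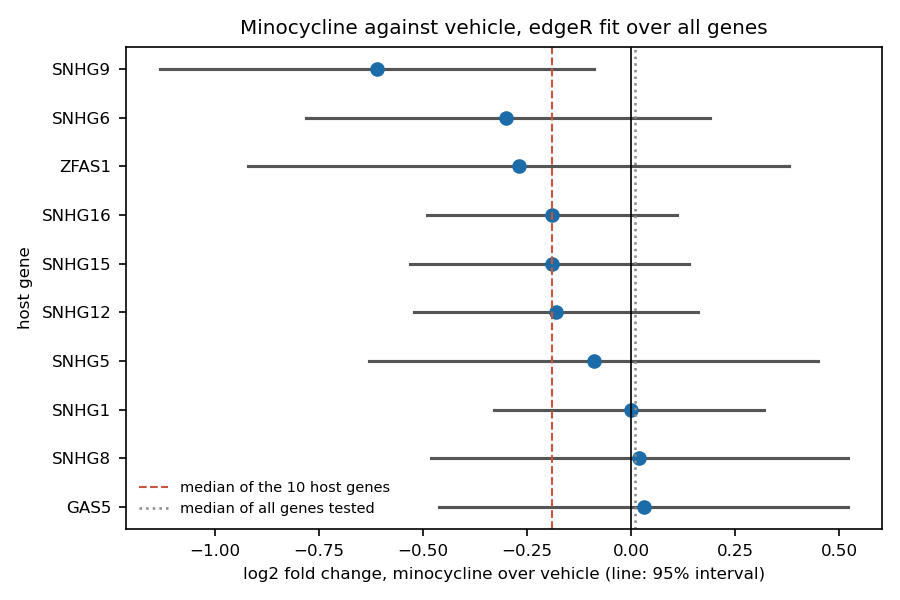
Log2 fold change of each host gene, minocycline over vehicle (horizontal axis), with its 95% interval from the edgeR fit (3 libraries per group), and the medians of the 10 host genes (-0.19) and of all genes tested (0.01) as vertical lines. The intervals of 9 genes include 0, and that of SNHG9, from -1.13 to -0.09, does not, before any adjustment for the number of genes tested.

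Levels are given as CPM, the count of a gene per 1e6 counts of its library after scaling with TMM factors, in the order control replicates 1, 2 and 3 and minocycline replicates 1, 2 and 3, with means ± SD over n = 3 libraries per group. The first genes described are hosts of box C/D snoRNAs, which guide 2'-O-methylation.

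GAS5, named for its accumulation in growth-arrested cells, carries a long series of box C/D snoRNAs. Its levels were 86.3, 117 and 133 CPM under vehicle and 99.3, 93.0 and 151 CPM under minocycline. The lowest and the highest library belonged to different groups, and the groups overlapped. The means were 112 ± 23.6 and 115 ± 32.0 CPM, a log2 fold change of 0.03 ± 0.22 (SE, adjusted p = 0.972) with a 95% interval from -0.46 to 0.52. The fold that these libraries allow thus ran from 0.728 to 1.44.

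SNHG1, host of a run of box C/D snoRNAs and lying head to head with SLC3A2, was the steadiest of the 10 in the control libraries. It measured 81.0, 83.1 and 88.5 CPM under vehicle and 79.8, 72.1 and 99.9 CPM under minocycline. The control values lay inside the range of the minocycline values. The means were 84.2 ± 3.88 and 83.9 ± 14.4 CPM, and the log2 fold change was -0.00 ± 0.15 (adjusted p = 0.995), with an interval from -0.33 to 0.32.

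SNHG5, host of the SNORD50 pair, had the highest CPM of the 10. It measured 150.2, 224 and 250.1 CPM under vehicle and 172, 151 and 262 CPM under minocycline. Control replicate 1 and minocycline replicate 2 were the low libraries, and the groups overlapped across their whole range. The log2 fold change was -0.09 ± 0.24 (adjusted p = 0.929, interval -0.63 to 0.45).

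SNHG6, host of SNORD87, measured 65.7, 90.0 and 99.9 CPM under vehicle and 63.2, 54.5 and 90.5 CPM under minocycline. Minocycline replicates 1 and 2 were below every control library, and minocycline replicate 3 was above 2 of them. The means were 85.2 ± 17.6 and 69.4 ± 18.8 CPM, a log2 fold change of -0.30 ± 0.22 (adjusted p = 0.820, interval -0.78 to 0.19).

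SNHG16, host of the SNORD1 snoRNAs, measured 117, 132 and 134 CPM under vehicle and 122, 116 and 97.7 CPM under minocycline. Minocycline replicate 3 was its lowest library, whereas that library was the highest of the 6 for GAS5, SNHG1, SNHG5 and SNHG8. The log2 fold change was -0.19 ± 0.13 (adjusted p = 0.820), the smallest SE of the 10 genes, with an interval from -0.49 to 0.11.

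ZFAS1, the antisense neighbour of ZNFX1 and host of the SNORD12 snoRNAs, varied most between control libraries. It measured 37.6, 64.9 and 75.9 CPM under vehicle and 44.6, 35.4 and 68.1 CPM under minocycline. Its highest control library was 2.02 times its lowest, and its highest minocycline library was 1.92 times its lowest. The means were 59.5 ± 19.8 and 49.4 ± 16.8 CPM, and the log2 fold change of -0.27 ± 0.29 (adjusted p = 0.845) had the widest interval of the 10, from -0.92 to 0.38.

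The next 3 genes host box H/ACA snoRNAs, which guide pseudouridylation. SNHG8, host of SNORA24, measured 25.3, 24.7 and 31.7 CPM under vehicle and 25.4, 20.5 and 37.0 CPM under minocycline. The lowest and the highest library were both minocycline libraries. The log2 fold change was 0.02 ± 0.22 (adjusted p = 0.987, interval -0.48 to 0.52).

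SNHG15, host of SNORA9, measured 69.4, 76.2 and 93.6 CPM under vehicle and 65.3, 66.2 and 77.6 CPM under minocycline. Each minocycline library was below its control of the same number, and the groups overlapped. The log2 fold change was -0.19 ± 0.15 (adjusted p = 0.825, interval -0.53 to 0.14).

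SNHG9, host of SNORA78, had the lowest CPM of the members, without regard to length, and was the one whose groups did not overlap. Its counts were 92, 125 and 136 under vehicle and 90, 73 and 81 under minocycline, which scaled to 5.00, 7.46 and 8.22 CPM and to 4.92, 3.97 and 4.63 CPM. Control replicate 1 was barely above minocycline replicate 1, and the separation rested on control replicates 2 and 3. Groups lay apart for 9.31% of all genes tested, and in this direction for 3.56%. The means were 6.89 ± 1.68 and 4.51 ± 0.486 CPM, a log2 fold change of -0.61 ± 0.23 (SE, unadjusted p = 0.0264, adjusted p = 0.820). With control replicate 1 left out SNHG9 passed (log2 fold change -0.80, adjusted p = 0.0156), in a setting where 17.9% of all genes passed and 8.34% passed as lower. It passed in none of the other 17 alternatives, over which its adjusted p ran from 0.477 to 1.000 and 0.00565% to 0.528% of all genes passed.

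SNHG12, whose introns hold snoRNAs of both classes, measured 31.9, 36.1 and 34.5 CPM under vehicle and 27.3, 27.7 and 35.2 CPM under minocycline. Minocycline replicates 1 and 2 were below all controls and minocycline replicate 3 was above 2 of them. The log2 fold change was -0.18 ± 0.15 (adjusted p = 0.826, interval -0.52 to 0.16).

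**Figure D2:**
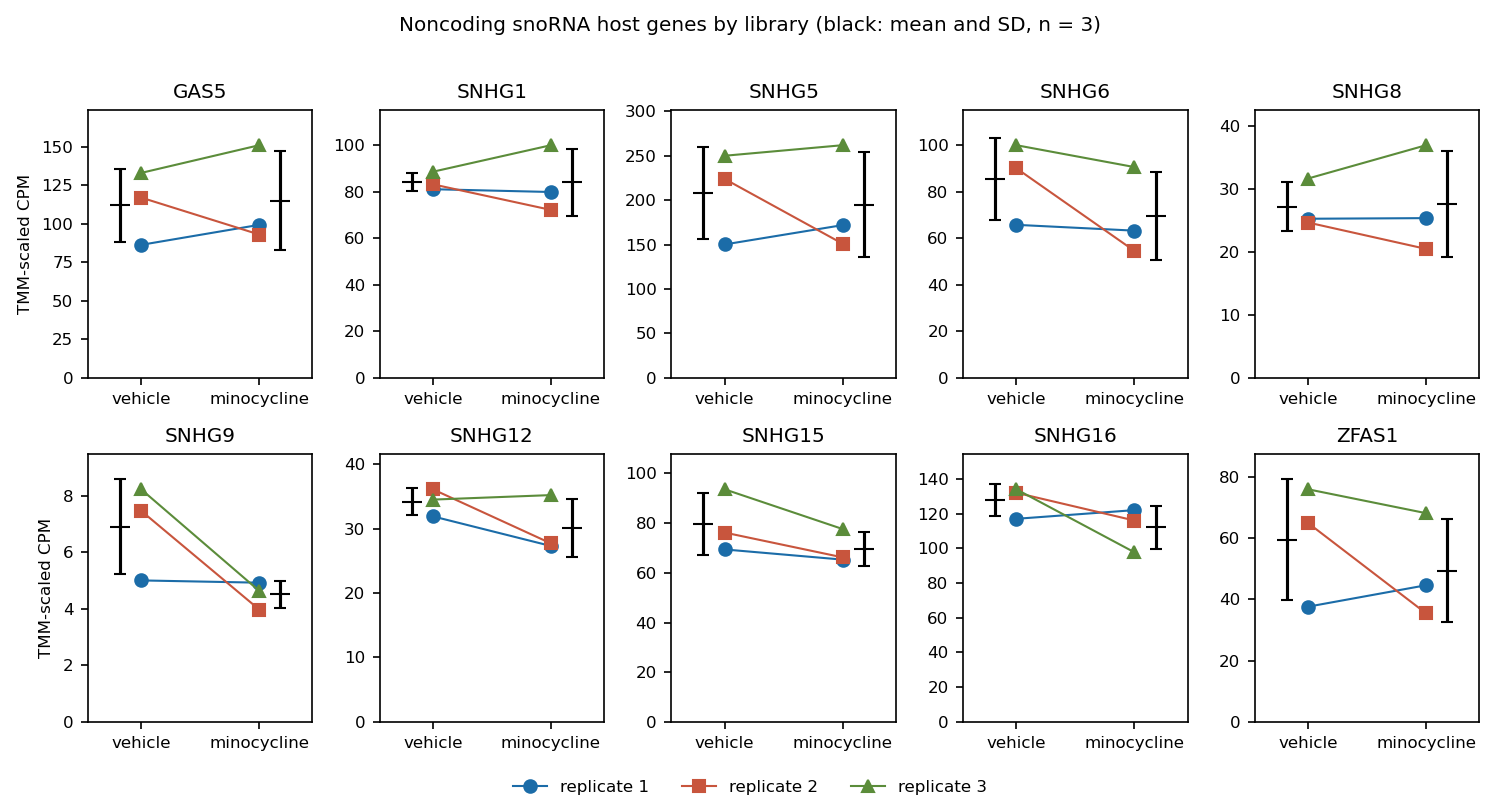
TMM-scaled CPM of the 10 host genes (vertical axes start at 0) in vehicle and minocycline libraries; lines join libraries that share a batch number, and black marks show the mean and SD of 3 libraries. In ZFAS1 the control libraries run from 37.6 to 75.9 CPM, and in SNHG9 the minocycline libraries lie at 3.97 to 4.92 CPM, below the lowest control at 5.00.

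The spread between replicates was larger than the treatment difference for most of the genes. For 7 of the 10 the SD of the log2 level among the 3 control libraries exceeded the size of the log2 fold change. The SD expected from counting alone was 0.02 to 0.07 on the log2 scale for 9 genes and 0.14 for SNHG9, whose mean count was 99.5. The SD among controls was 0.53 for ZFAS1, 0.39 for SNHG5, 0.32 for GAS5 and 0.31 for SNHG6, against 0.07 for SNHG1, 0.09 for SNHG12 and 0.11 for SNHG16.

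Levels of different genes were compared per length. With the length of the canonical transcript of the gene annotation, the mean over control libraries was 257 ± 18.4 RPKM (CPM divided by the transcript length in kilobases) for SNHG16, 158 ± 39.4 for SNHG5 and 146 ± 30.8 for GAS5. SNHG1 followed at 72.5 ± 3.34 RPKM and SNHG6 at 46.8 ± 9.65 RPKM. SNHG5 and GAS5 did not differ beyond their SDs. Lower levels were found for SNHG15 (26.6 ± 4.16), SNHG9 (20.3 ± 4.97), SNHG12 (18.3 ± 1.14), ZFAS1 (13.1 ± 4.37) and SNHG8 (4.42 ± 0.633), and among these each of the first 4 except ZFAS1 lay within the summed SDs of the next. The order depends on the transcript model. With the median length of all annotated transcripts of each gene, SNHG5 was highest at 188 RPKM, followed by SNHG6 at 164 and GAS5 at 153. SNHG16 then took the eighth place at 52.0 RPKM, because its canonical transcript has 498 bases and its median transcript 2459. ZFAS1 moved to the fourth place at 86.7 RPKM. SNHG5 and GAS5 were among the first 3 in both orders.

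The host genes shared a pattern across libraries that crossed the treatment groups. Their summed counts made up 0.0691%, 0.0824% and 0.0880% of each vehicle library (replicates 1, 2 and 3) and 0.0722%, 0.0662% and 0.0934% of each minocycline library. Control replicate 1 and minocycline replicates 1 and 2 were the low libraries, and control replicates 2 and 3 and minocycline replicate 3 the high ones. The 95% Wilson interval of the lowest share was 0.0650% to 0.0674% and that of the highest 0.0920% to 0.0949%, which cover counting error only. Minocycline replicate 2 was the lowest library for 5 of the 10 genes. Control replicate 3 was the highest for 5 and minocycline replicate 3 for 4.

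The same libraries were low and high for protein-coding snoRNA host genes, most of them ribosomal protein genes. The 38 genes of that list took 3.95%, 5.47% and 6.00% of the counts under vehicle and 4.43%, 3.95% and 5.39% under minocycline. After each gene was centred on its own mean over the 6 libraries, the mean log2 level of the noncoding hosts was -0.18, 0.15 and 0.31 under vehicle and -0.15, -0.31 and 0.19 under minocycline. That of the coding hosts was -0.21, 0.16 and 0.33, and -0.15, -0.26 and 0.14. The 2 mean profiles differed by a root mean square of 0.034, while a single gene differed from the coding profile by a median of 0.27 over 11864 genes with a mean of at least 5 CPM. Means over several genes vary less than single genes, so these 2 values are not of the same kind. The first principal component of all genes tested ordered the libraries in a like way, with scores of -34.9, 31.1 and 47.1 for the controls and -14.0, -32.3 and 3.1 for the minocycline libraries. The part of this library difference in the fold changes was not tested.

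Single members followed this pattern to different degrees. The root mean square difference from the coding profile was 0.08 for SNHG15, 0.12 for SNHG6, 0.13 for SNHG12 and 0.15 for GAS5, SNHG1 and SNHG5. It was 0.19 for SNHG8, 0.22 for ZFAS1 and 0.23 for SNHG9 and SNHG16. A gene that is level over the libraries also differs from the coding profile, by the swing of that profile. The value thus mixes likeness with the size of the swing, and a large one does not tell them apart. ZFAS1 followed the pattern with a larger swing, from -0.55 in minocycline replicate 2 to 0.54 in control replicate 3. SNHG9 and SNHG16 departed from it in minocycline replicate 3, where they stood at -0.24 and -0.29 while the other 8 genes stood at 0.06 to 0.46.

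**Figure D3:**
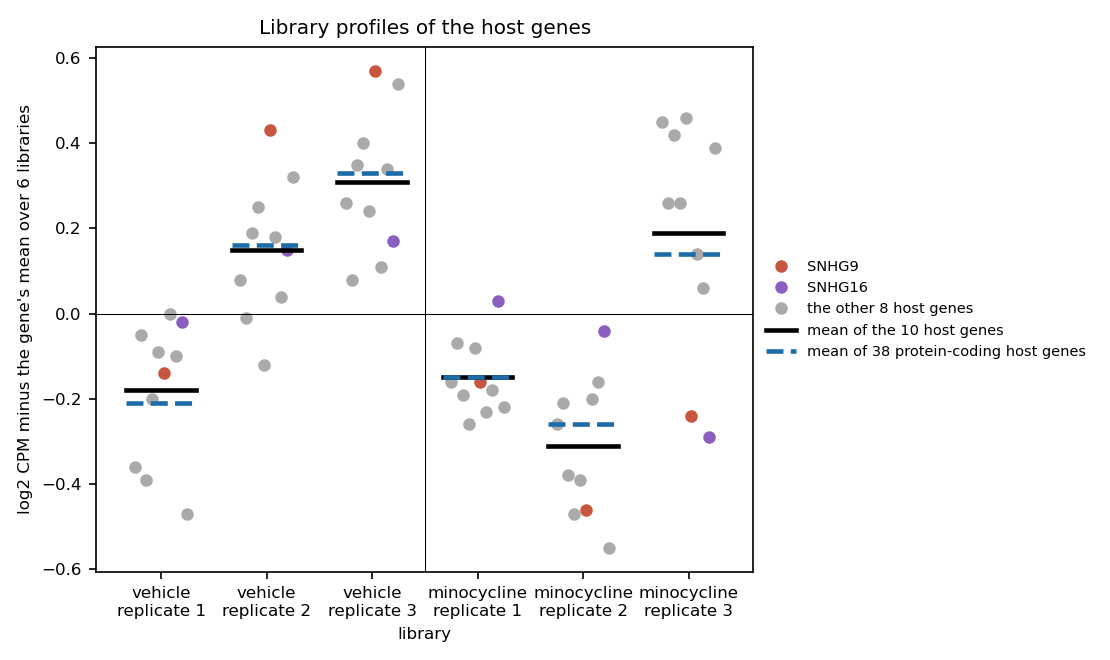
Log2 CPM of each host gene minus its own mean over 6 libraries (vertical axis) in each library (horizontal axis), with the mean of the 10 noncoding host genes as a solid black bar and that of 38 protein-coding host genes as a dashed blue bar. The 2 bars lie close together in every library, and SNHG9 and SNHG16 lie at -0.24 and -0.29 in minocycline replicate 3, below the other 8 genes.

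Differences within a batch number, minocycline minus control on the log2 scale, had no common direction. In batch 1 the median over the 10 genes was -0.01, with 5 lower and 5 higher. In batch 2 it was -0.36 and all 10 were lower, in batch 3 it was -0.06 with 5 lower. Protein-coding host genes had medians of 0.09, -0.61 and -0.27 in the same batches, and all genes tested 0.02, 0.02 and 0.01. Of the 10 genes 3 had the same sign in each batch. They were SNHG6 (-0.06, -0.72 and -0.14), SNHG9 (-0.02, -0.89 and -0.81) and SNHG15 (-0.09, -0.20 and -0.27). ZFAS1 went from 0.25 in batch 1 to -0.87 in batch 2.

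The 5 genes whose centred levels over the 6 libraries lay nearest to the mean profile of the host genes, among 11864 genes with a mean of at least 5 CPM, were LSM5, APOO, PKIB, CYB5A and NPM3. LSM5 encodes a subunit of the Sm-like ring that binds U6 small nuclear RNA, and APOO a protein of the mitochondrial inner membrane. Their root mean square differences from the profile were 0.026, 0.027, 0.029, 0.032 and 0.032. All 5 are protein-coding and none is a snoRNA host on the lists used here.

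Further noncoding host genes were tested in the same fit, and none passed. Of 18 listed, 17 were in the table and 15 were tested, 12 with a lower and 3 with a higher fitted level (median -0.06 on the log2 scale). SNHG30 had the smallest unadjusted p, with 53.8 ± 12.6 CPM in control and 40.0 ± 3.39 CPM in minocycline libraries, a log2 fold change of -0.43 ± 0.18 (adjusted p = 0.820). SNHG10 went from 18.9 ± 1.69 to 15.7 ± 0.443 CPM (log2 fold change -0.26 ± 0.15), and SNHG3 showed -0.22 ± 0.13. SNHG19 showed -0.57 ± 0.37. The adjusted p of these 4 genes was 0.820.

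No gene of the decay pathways passed. Of 16 tested factors of nonsense-mediated decay, 10 were fitted higher and 6 lower, with log2 fold changes from -0.20 to 0.21 and a median of 0.02. EIF4A3 and MAGOH, subunits of the exon junction complex that marks spliced RNA, showed -0.20 ± 0.14 and -0.17 ± 0.17, and NBAS and DHX34 showed 0.18 ± 0.14 and -0.12 ± 0.12. Of 14 tested factors of exonuclease and exosome decay none passed (8 higher and 6 lower, median 0.05). ZCCHC8, a subunit of the nuclear exosome targeting complex, went from 39.6 ± 7.78 to 53.4 ± 2.32 CPM, a log2 fold change of 0.43 ± 0.16 (unadjusted p = 0.0232, adjusted p = 0.820). LSM1, EXOSC3 and XRN2 showed -0.36 ± 0.20, -0.26 ± 0.15 and 0.20 ± 0.16.

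The proteins that assemble with snoRNAs were also tested. Of 16 core and assembly proteins 13 were fitted lower (median -0.12 on the log2 scale), and none passed. NOP10 and NHP2, core proteins of box H/ACA particles, showed -0.38 ± 0.19 and -0.30 ± 0.15, and SNU13 and NOP56, core proteins of box C/D particles, showed -0.31 ± 0.17 and -0.19 ± 0.13. Of the 38 protein-coding snoRNA hosts 33 had a lower fitted level with a median of -0.26, and none passed. RPL17 showed -0.33 ± 0.14, RPS12 -0.47 ± 0.28 and RPS20 -0.39 ± 0.27. Reads of ribosomal protein genes can be shared with their many pseudogenes, so that these levels are uncertain.

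Regulators of 5'TOP translation and 5'TOP mRNAs outside the ribosome were split evenly, with 8 higher and 8 lower of 16 tested, a median of 0.00 and none past the threshold. EIF4EBP1, an inhibitor of cap-dependent translation, showed 0.60 ± 0.26 (unadjusted p = 0.0432, adjusted p = 0.820). LARP1, which binds the 5'TOP tract, showed 0.18 ± 0.18, PABPC1, the cytoplasmic poly(A) binding protein, 0.21 ± 0.13, and TPT1 -0.34 ± 0.25. Over these 6 lists together, DESeq2 and limma-voom called 0 genes as well, and without control replicate 1, where 17.9% of all genes passed, there were 32 calls.

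4 of the host genes lie head to head with a protein-coding gene on the opposite strand, and the counts of the 2 genes in 1 library give a ratio that needs no scaling between libraries. The annotated span of SNHG1 lies 50 bases from that of SLC3A2, whose canonical start is 24974 bases from that of SNHG1, and SLC3A2 encodes the heavy chain of several amino acid transporters. SLC3A2 went from 205 ± 18.8 to 354 ± 7.23 CPM, with all minocycline libraries above all controls as for 5.74% of genes tested, a log2 fold change of 0.79 ± 0.12 that did not pass (adjusted p = 0.102). It passed in 5 of 18 alternatives, among them DESeq2 (adjusted p = 7.24e-06), and its adjusted p was 0.182 in the fit with the replicate block. SNHG1 counts per 100 SLC3A2 counts were 35.7, 43.1 and 45.3 under vehicle and 22.3, 20.9 and 27.9 under minocycline. The log2 ratio was lower by a mean difference of -0.81 and the groups did not overlap (two-sided exact permutation test, p = 0.10, the smallest that 3 against 3 libraries allow, and 0.200 adjusted over 4 pairs). SNHG1 itself had a log2 fold change of -0.00 ± 0.15, so this ratio mostly restates the SLC3A2 difference and shows no change in SNHG1.

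SNHG9 starts 69 bases from the start of RPS2, which encodes a protein of the small ribosomal subunit. RPS2 went from 3598 ± 1126 to 3051 ± 591 CPM, a log2 fold change of -0.24 ± 0.26 (adjusted p = 0.845). SNHG9 counts per 1000 RPS2 counts were 2.13, 1.91 and 1.81 under vehicle and 1.63, 1.60 and 1.26 under minocycline. Every minocycline library was below every control, and control replicate 1, the lowest control by CPM, had the highest ratio. The mean difference of the log2 ratio was -0.39 (two-sided exact permutation test, p = 0.10, adjusted p = 0.200). Both ratios whose groups lay apart were among 4 pairs computed.

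GAS5 and ZFAS1 showed no such separation from their neighbours. GAS5 starts 391 bases from the start of ZBTB37, a zinc finger gene that went from 21.5 ± 9.19 to 25.8 ± 4.25 CPM. GAS5 counts per 100 ZBTB37 counts were 273, 599 and 980.4 under vehicle and 427, 303 and 646 under minocycline (exact permutation p = 0.80). The groups overlapped, and the vehicle libraries held both the lowest and the highest ratio. ZFAS1 starts 585 bases from the start of ZNFX1, a helicase-domain gene that went from 32.7 ± 4.13 to 34.8 ± 6.94 CPM, and ZFAS1 counts per 100 ZNFX1 counts were 102, 228 and 230.0 under vehicle and 113, 93.3 and 254 under minocycline (exact permutation p = 0.90).

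**Figure D4:**
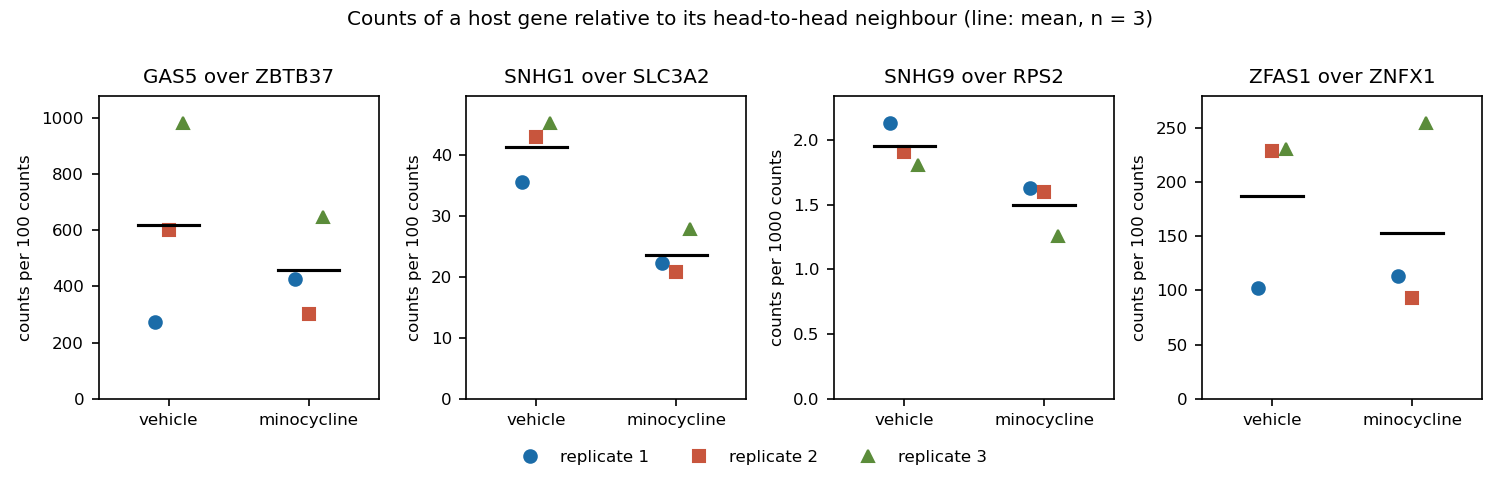
Counts of 4 host genes relative to the counts of the protein-coding gene on the other side of the start, in each library (symbols mark the replicate number, lines the mean of 3 libraries, vertical axes start at 0). The groups lie apart for SNHG1 over SLC3A2 (20.9 to 27.9 with minocycline against 35.7 to 45.3) and for SNHG9 over RPS2 (1.26 to 1.63 against 1.81 to 2.13), and overlap for the other 2 pairs. In the first of these pairs the log2 fold change was -0.00 for SNHG1 and 0.79 for SLC3A2.

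Several members overlap another gene in the annotation, and no source used here gives the strand setting of the counting. Exons of SNHG8 and PRSS12 on opposite strands share 2487 bases, and those of SNHG6 and MCMDC2 share 1488 bases. PRSS12 went from 23.8 ± 1.74 to 27.8 ± 3.08 CPM and MCMDC2 had 4 to 24 counts per library, so that the levels of SNHG8 and SNHG6 are uncertain as far as reads were shared. TRNAU1AP shares 8 bases with SNHG12. Some transcripts of ZFAS1 share 249 bases with ZNFX1.

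The snoRNAs that could be matched were barely counted. Of 34 listed snoRNAs of the host genes, 6 could be matched by identifier and position inside a host. Each had at least 1 count in some library, and 1, SNORD99, had enough to be tested. The counts of the unmatched snoRNAs are not known. They are shorter than 100 bases, and 3 are shown in GRCh37 coordinates. These have the highest counts among the matched snoRNAs of GAS5 (1 matched), SNHG12 (1) and ZFAS1 (3). SNORD1B, the 1 matched in SNHG16, is not shown. Capitals mark the D box CTGA nearest to the 3' end and, where found, the C box TGATGA (sense strand searched).
SNORD78 (chr1:173834760-173834824, minus strand): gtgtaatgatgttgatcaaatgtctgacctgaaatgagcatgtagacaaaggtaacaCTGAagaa
SNORD99 (chr1:28905261-28905334, minus strand): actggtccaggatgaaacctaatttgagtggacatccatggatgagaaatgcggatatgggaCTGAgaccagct
SNORD12 (chr20:47897220-47897309, plus strand): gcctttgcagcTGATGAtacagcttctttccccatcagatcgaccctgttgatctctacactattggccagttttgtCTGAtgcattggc

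SNORD99 had 17, 15 and 15 counts under vehicle and 27, 19 and 17 under minocycline, a log2 fold change of 0.35 ± 0.32 that did not pass (adjusted p = 0.830). SNORD78 had 1 to 11 counts per library while GAS5 had 1588 to 2647, and SNORD12 had 1 to 6 while ZFAS1 had 652 to 1256. SNORD1B, in SNHG16, had 3 to 10. The matched snoRNAs other than SNORD99 had too few counts to be tested, so differences in them were not assessed. The cause of the low counts was not tested.

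The total count was 17303180 to 17835756 per library. Genes typical of HEK293 cells were present, with 692 ± 156 CPM for VIM, 880.3 ± 199.6 for KRT8 and 79.7 ± 8.35 for NEFM in control libraries. In the same libraries KRT18 had 126 ± 31.2 CPM and PAX2 was low at 4.16 ± 0.497 CPM, and NEFL had no matching identifier. Of 6 measured genes of other cell types, ALB, PTPRC, CD3E, MYH7 and INS had at most 4 counts in any library, and COL1A1 had 77.2 ± 4.19 CPM in control and 63.7 ± 9.33 CPM in minocycline libraries. The series' design text calls the 3 libraries of a group biological replicates.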

How the data were processed

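The authors deposited raw read counts, whole numbers per gene in 1 table, for 6 libraries of total RNA, with 57820 versioned Ensembl identifiers and no normalization, and the build was hg19 per the submitters' processing notes. Per the labels' protocols, the library kit was NEBNext Ultra II RNA. Not given in the sources used here: RNA selection, strand setting, aligner, counter and gene annotation. Identifiers were matched without version to a table of gene names (55538 matched), and positions and lengths were read from GENCODE gene models lifted to GRCh37, which may differ from those counted. Start sequences came from RefSeq (GRCh38.p14).

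Genes were filtered with filterByExpr, scaled with TMM factors and tested with edgeR 4.0.16 (glmQLFit and glmQLFTest, R 4.3.3) over all 17225 genes with treatment as the single term. A call is an adjusted p (Benjamini-Hochberg) under 0.05, and intervals used the t distribution with the fit's degrees of freedom. Centred log2 levels used a prior count of 2. The script was tested on simulated counts. P-values measure the spread between these 6 libraries. Alternatives used DESeq2 1.42.0, limma 3.58.1 (voom) and sva 3.50.0, other scalings and filters, the replicate block, splines of transcript length and GC content (4 degrees of freedom per library, 97.3% of genes tested had both), and the omission of mitochondrial genes or of each library. The replicate numbers pair the libraries by the batch label. Deviations from the group means correlated across genes by -0.05, -0.29 and 0.30 in same-numbered pairs. In differently numbered pairs the correlations ran from -0.42 to 0.50, so same-numbered libraries were not more alike than others.

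The members and lists were chosen with earlier results of these data known. Named were all members, the 4 genes with the smallest unadjusted p of each list, genes adjoining a member, snoRNAs inside members, the 5 genes nearest in profile and genes checking the response. Other genes at most 1 kb away, with few counts, are not listed.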

Additional observations from a re-analysis of the deposited data

How the results depend on the processing

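No host gene passed in 17 of the 18 alternatives, and SNHG9 passed without control replicate 1 (members called 0 to 1 with 1 library left out). Over all genes 9 were called in the main setting, 50 with DESeq2, 94 with no filter on low counts, 37 with the length and GC correction, 39 with that correction and the replicate block, 91 with 1 surrogate variable (added after the data were seen), and 1 to 3154 with 1 library left out. With the replicate block 13 genes were called, and it changed no call of a host gene. Among the 6 lists of other snoRNA hosts, decay factors, snoRNA-binding proteins and 5'TOP genes, with neighbours and response genes not counted, 0 genes were called, 1 (EIF4EBP1) with the length and GC correction and the block and 1 with the surrogate variable, and 0 to 32 with 1 library left out. The median log2 fold change of the host genes was -0.31 to -0.07 with 1 library left out. Of 180 single values of host genes 22 changed sign, none of them past the threshold in either setting. SNHG1 (-0.00) was 0.07 with library size scaling, 0.00 with at least 10 counts in every library, 0.01 with the length and GC correction, 0.00 with the block added, 0.07 with the surrogate variable, and -0.16 to 0.09 with 1 library left out. SNHG8 (0.02) was -0.02 with limma-voom, -0.00 with no filter, -0.01 with the replicate block, -0.16 and -0.17 with the correction without and with the block, and -0.26 to 0.19 with 1 library left out. With the surrogate variable SNHG5 was 0.21, ZFAS1 0.15, MAGOH 0.00, TPT1 0.02, ZBTB37 -0.02, RPS2 0.13 and ZNFX1 -0.03. ZNFX1 was -0.04 with the correction and -0.05 with the block added. With 1 library left out GAS5 ran from -0.23 to 0.16, SNHG5 from -0.38 to 0.06 and ZNFX1 from -0.02 to 0.23. The cause was not tested. For SNHG9 the SD expected from counting was 0.14 and the SD among control libraries 0.37 on the log2 scale. The matched snoRNAs had at most 27 counts in a library.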
